A study of Oryza sativa with 12 samples.

Results

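Germinating rice embryos fed glucose were compared between an incubation named AC (GlcAC, 2 arrays) and one with the uncoupler 2,4-dinitrophenol (GlcDNP, 2 arrays), which together are 4 of the 12 arrays of the study. The arrays were chosen by their titles. All embryos came from Oryza sativa cultivar Dongjin and spent 24 h in the dark at 28 °C in 10 mM calcium chloride. The medium of the GlcAC embryos held 60 mM glucose and no DNP. The GlcDNP embryos received the same 60 mM glucose with 0.08 mM DNP and stayed in air on wet paper. The labels do not spell out AC. Apart from DNP in air, the protocol describes only an incubation under nitrogen-flushed medium, which AC is taken to mean. Submersion and loss of oxygen therefore cannot be told apart, and each RNA came from a pool of many embryos. Further arrays served for context: Glc (60 mM glucose in air without DNP, 2 arrays), and MtlAC and MtlDNP (the same 2 treatments with 60 mM mannitol in place of glucose, 2 arrays each). For a few genes the level in Mtl (60 mM mannitol in air without DNP, 2 arrays) is given too. As far as the labels tell, the comparison asks how expression under loss of oxygen differs from expression under loss of cellular energy in air.

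Mitochondria burn sugar products with oxygen and store the energy as a proton gradient across the inner membrane, which drives ATP synthesis. An uncoupler such as DNP carries protons back across that membrane, so respiration continues and oxygen is still consumed, but less ATP is made. Without oxygen the respiratory chain stops, and plant cells draw ATP from glycolysis while fermentation of pyruvate to ethanol regenerates the NAD+ that glycolysis needs. Rice is unusual among cereals in that its seeds can germinate in this state. Both treatments limit energy, and only the anaerobic one removes oxygen.

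Over 36643 probe sets (probes), 1454 were higher in GlcAC (3.97% of all probes tested) and 475 were lower (1.3%), together 1929 (5.26%), or 1216 without GlcAC replicate 2. Calls here and below required an adjusted p under 0.05 from limma together with a change of 2-fold or more, 1 on the log2 scale. The share of higher calls was 75.4%, and 62.8% (1193 higher and 707 lower) when the arrays were quantile normalized once more. The median log2 difference of all probes was -0.07. Values spread less within the GlcDNP arrays (SD 1.664 and 1.673) than within the GlcAC arrays (SD 1.767 and 1.774), and the part of this in the results was not tested beyond the quantile normalization. The replicate arrays correlated at 0.971 in GlcAC and 0.957 in GlcDNP, and the arrays of different treatments at 0.923 to 0.930. The design text calls the replicates technical, so p-values measure the spread between arrays, not between batches of embryos. Set against air without DNP, 1925 probes were called in GlcAC (5.25%) and 5113 in GlcDNP (14%); these contrasts share the Glc arrays. Of the called probes, 151 of the higher and 47 of the lower carried a gene with a usable name, and only these could be named. These are 5.50% and 1.71% of the 2744 probes with such a name, from which all gene lists below were drawn. Whether a lower level comes from fewer cells of a type or from less RNA per cell cannot be told apart in whole embryos.

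Some genes of sucrose cleavage, glycolysis and ethanol fermentation were higher in GlcAC than in GlcDNP, and none of these lists held a gene that fell. Of all probes with a usable name, 5.50% were called higher and 1.71% lower, so short lists hold few lower calls in any case. Of the ethanol fermentation list, 2 of 3 measured members rose, and of the glycolysis list 8 of 21 rose and none fell, with a median log2 difference of 0.61 against -0.07 for all probes. Adh2, an alcohol dehydrogenase that makes ethanol from acetaldehyde, had log2 levels of 4.08 and 3.89 in GlcAC, against 1.59 and 1.70 in GlcDNP and 2.34 and 2.55 in Glc. The GlcDNP arrays lay apart below all others, and below the mean lower quartile of the arrays (2.22), where signal over background is not shown, so that the log2 difference of 2.33 ± 0.20 (SE, adjusted p = 0.000177 by limma) may be too small. PDC2 (LOC4332519), a pyruvate decarboxylase that feeds acetaldehyde to this step, had log2 levels of 8.71 and 8.63 in GlcAC, against 6.21 and 6.51 in GlcDNP, with Glc between them at 7.99 and 7.98. Its log2 difference was 2.31 ± 0.18 (adjusted p = 8.45e-05, limma), about 4.95-fold. A second decarboxylase gene, PDC3 (LOC4344382), lay near the lower quartile in all 4 arrays and had a log2 difference of -0.22 that was not called.

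Sucrose synthases split sucrose with UDP and so spare ATP compared with invertase. OsSUS2 had log2 levels of 5.01 and 5.11 in GlcAC, against 2.64 and 2.49 in GlcDNP, a log2 difference of 2.49 ± 0.18 (adjusted p = 5.34e-05, limma). Glc, at 4.83 and 5.04, overlapped GlcAC, so the low level of OsSUS2 was that of GlcDNP. OsSUS1 had log2 levels of 4.71 and 4.54 in GlcAC and 3.54 and 3.24 in GlcDNP. These were the called members among 17 measured genes of sucrose cleavage, none of which fell, and the cytosolic invertase CINV1 had a log2 difference of 0.98 that missed the size threshold. The list's median log2 difference was -0.04.

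Among glycolytic enzymes the largest log2 difference was that of FBA1, an aldolase that splits fructose bisphosphate. Its log2 levels were 11.23 and 11.11 in GlcAC, against 8.32 and 8.24 in GlcDNP and 10.94 in both Glc arrays. The log2 difference was 2.89 ± 0.15, about 7.41-fold (adjusted p = 1.18e-05, limma). FKI, a fructokinase, had log2 levels of 7.18 and 7.07 in GlcAC and 4.80 and 5.07 in GlcDNP. Eno1, an enolase, had log2 levels of 5.94 and 5.84 in GlcAC and 4.02 and 3.82 in GlcDNP. AldC-1 (another aldolase) and GAPC3 (a glyceraldehyde phosphate dehydrogenase) differed by 1.90 and 1.77 on the log2 scale, with no overlap between the treatments. For FBA1, FKI, Eno1, AldC-1 and GAPC3 alike, Glc lay between GlcDNP and GlcAC. HXK6 (LOC4338010), a hexokinase, was otherwise ordered, with 4.09 and 4.56 in GlcAC, 2.72 and 2.39 in GlcDNP, and 1.53 and 1.58 in Glc.

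**Figure D1:**
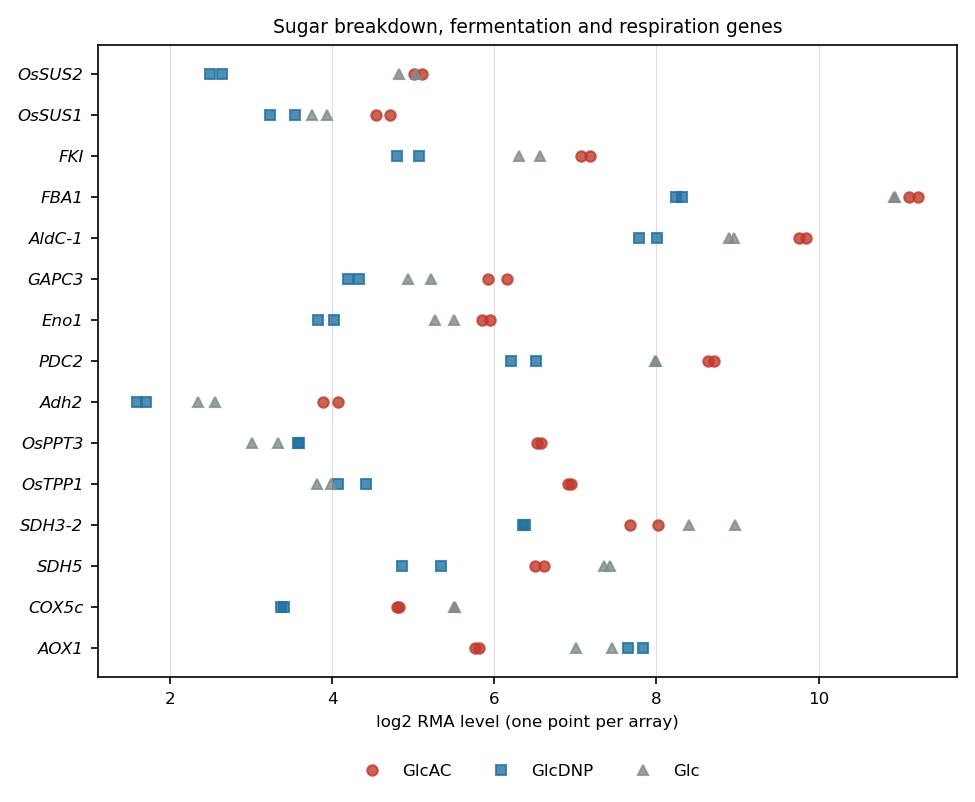
Log2 RMA levels (x axis) of 15 named genes of sugar breakdown, fermentation and respiration (y axis), 1 point per array, for GlcAC (circles), GlcDNP (squares) and Glc (triangles). Levels are comparable within a row only. GlcAC lies to the right of GlcDNP in every row except AOX1, where GlcAC is at 5.81 and 5.76 and GlcDNP at 7.84 and 7.65.

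Of the sugar transport and trehalose genes, 4 were higher in GlcAC and none was lower, beside 5.50% higher and 1.71% lower of all probes with a usable name. OsPPT3, named as a phosphoenolpyruvate/phosphate translocator of plastids, had log2 levels of 6.52 and 6.57 in GlcAC, against 3.58 and 3.59 in GlcDNP and 3.33 and 3.01 in Glc. Only the GlcAC arrays were high among these 3 conditions, and the log2 difference was 2.96 ± 0.18 (adjusted p = 2.59e-05, limma). OsSWEET4, a sugar carrier, had a log2 difference of 1.43 ± 0.19. These were 2 of 23 measured genes for sugar transport, none fell, and the list's median was -0.08. Of 8 trehalose phosphate phosphatases, which remove the phosphate of the sugar signal trehalose 6-phosphate, 2 rose and the others lay between -0.26 and 0.08. OsTPP1 had log2 levels of 6.90 and 6.95 in GlcAC, against 4.42 and 4.07 in GlcDNP and 3.81 and 3.99 in Glc, so that GlcDNP lay near Glc. OsTPP8 had 7.39 and 7.27 in GlcAC, against 5.58 and 5.92 in GlcDNP and 6.96 and 6.86 in Glc, so that GlcDNP was the low group. OsTPP2, OsTPP3, OsTPP4, OsTPP7, OsTPP9 and OsTPP10 were the members not called.

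Of 6 alpha-amylase genes, whose enzymes release sugar from starch, none was called in this comparison. RAmy3D, the member known to be induced by sugar starvation in rice, came closest, with log2 levels of 6.68 and 6.45 in GlcAC, against 5.61 and 5.53 in GlcDNP and a mean of 3.30 in Glc. Its log2 difference of 0.995 ± 0.16 (adjusted p = 0.0045, limma) fell just short of the size threshold. The log2 differences of RAmy3B, RAmy3A, AMY2A, RAmy3E and AMY1A lay between -0.57 and 0.59, and none of these 5 passed a level of 2.97 in the 4 arrays. The 4 measured genes for the glyoxylate cycle and gluconeogenesis, which turn fat into sugar in seedlings, were not called either. ICL (isocitrate lyase), MS (malate synthase), PPDKB and PPDK2 had log2 differences of -0.10, -0.29, -0.49 and 0.71.

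Mitochondrial genes split. AOX1, an alternative oxidase that passes electrons to oxygen without pumping protons, was low in GlcAC, with log2 levels of 5.81 and 5.76, against 7.84 and 7.65 in GlcDNP and 7.45 and 7.003 in Glc. Its log2 difference was -1.96 ± 0.19 (adjusted p = 0.000342, limma), about 3.89-fold lower. COX5c, a subunit of cytochrome c oxidase, went the other way: GlcAC had log2 levels of 4.80 and 4.82, against 3.40 and 3.36 in GlcDNP and 5.52 and 5.51 in Glc. Its log2 difference was 1.42 ± 0.21 (adjusted p = 0.00315, limma), and here the low level was that of GlcDNP.

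Subunits of succinate dehydrogenase, the complex that joins the tricarboxylic acid cycle to the respiratory chain, sided with COX5c. Of 10 measured genes for this cycle, 3 rose and none fell, with a median log2 difference of 0.75. SDH3-2 had log2 levels of 7.67 and 8.02 in GlcAC, against 6.35 and 6.38 in GlcDNP and 8.40 and 8.97 in Glc. SDH5 had log2 levels of 6.51 and 6.61 in GlcAC, against 4.86 and 5.35 in GlcDNP and 7.35 and 7.42 in Glc. For both genes the treatments did not overlap and Glc was higher still. SDH2-1 differed by 1.04 ± 0.20, a call lost when the arrays were quantile normalized once more, without GlcAC replicate 2 and without GlcDNP replicate 1; SDH3-2 lost its call without GlcAC replicate 2. SDH7, SDH3-1, SDH4, SDH1 and SDH6 had log2 differences of 0.90, 0.79, 0.71, 0.60 and 0.52, and the succinyl-CoA ligase genes SCS-alpha and SCS-beta had 0.38 and -0.29, none called.

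Porins of the outer mitochondrial membrane (voltage-dependent anion channels) followed with 2 of 6 higher and none lower. OsVDAC1 had log2 levels of 6.08 and 6.30 in GlcAC and 4.32 and 4.72 in GlcDNP, a log2 difference of 1.67 ± 0.21. OsVDAC5 differed by 1.04, a call lost with quantile normalization, without GlcAC replicate 2 and without GlcDNP replicate 1, and OsVDAC2, OsVDAC3, OsVDAC4 and OsVDAC6 were not called, with log2 differences of -0.18, 0.41, 0.65 and 0.14. OAT, an ornithine aminotransferase, was the called member of 10 genes for amino acid breakdown, with log2 levels of 7.42 and 7.62 in GlcAC and 5.51 and 5.23 in GlcDNP. The 4 non-symbiotic hemoglobins, which scavenge nitric oxide, were not called: NSHB1, NSHB2, NSHB3 and NSHB4 had log2 differences of 0.71, 0.50, -0.40 and -0.25. NSHB1 was at 6.69 and 6.63 in GlcAC, against 5.92 and 5.99 in GlcDNP and a mean of 8.75 in Glc.

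CAD7, a cinnamyl alcohol dehydrogenase of the lignin pathway, had the largest log2 difference among genes with a usable name. Its log2 levels were 9.38 and 9.21 in GlcAC, against 4.70 and 4.51 in GlcDNP and 5.35 and 5.66 in Glc, so GlcAC stood apart from both. The log2 difference was 4.69 ± 0.26, about 25.9-fold (adjusted p = 1.39e-05, limma). Among the other leading genes were 2 of the chitinase family. Chib3H-a, whose synonyms in the gene table name a chitinase-like xylanase inhibitor, had log2 levels of 6.07 and 6.10 in GlcAC, against 1.66 and 2.28 in GlcDNP and 3.14 and 4.01 in Glc. A gene named only chitinase (LOC4351188) had 5.75 and 6.05 in GlcAC, against 2.497 and 2.75 in GlcDNP and 2.93 and 3.06 in Glc. The log2 differences were 4.12 ± 0.30 and 3.28 ± 0.34, and GlcDNP was dim for Chib3H-a.

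These 2 chitinase-family genes lie within a run of 11 neighbouring measured genes that were all called higher in GlcAC, a run noticed after the values were seen. Neighbourhood was taken from the gene order of the RefSeq assembly GCF_034140825.1, counting only genes that had a probe of their own. The run goes from LOC4351185 to LOC4351198 and includes Chib3H-h (LOC4351187); 8 of its genes carry no informative name. Log2 differences ran from 1.501 for Chib3H-h, a call lost without GlcAC replicate 2, to 4.66 for LOC4351192, with a median of 3.49. LOC4351192 had log2 levels of 11.46 and 11.30 in GlcAC, against 6.48 and 6.96 in GlcDNP and a mean of 9.56 in Glc. Against Glc, the genes of the run differed by 0.58 to 3.40 in GlcAC and by -3.48 to 0.70 in GlcDNP. Which treatment departed more from Glc varied between genes: LOC4351195 was at 0.69 in GlcAC and -3.48 in GlcDNP, and LOC4351191 at 3.40 and 0.70. On the mannitol arrays, which GlcAC and GlcDNP do not share, all 11 were also called higher in MtlAC than in MtlDNP, with log2 differences of 2.11 to 5.12. The 3 nearest measured genes before the run had log2 differences of -0.02 to 0.33 and the 3 after it -0.16 to 0.17. Of these, MYBAS1, LOC9269083 and LOC4351199 were dim in both treatments, with means of 1.25, 1.48 and 0.69 in GlcAC. MYBAS1 and LOC9269083 adjoin the run, so how sharply it ends cannot be told from these values. Related neighbouring genes may share probe sequence, so their values may not be independent, and this was not tested. Among 24160 measured genes in order, the next longest runs held 4 genes.

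**Figure D2:**
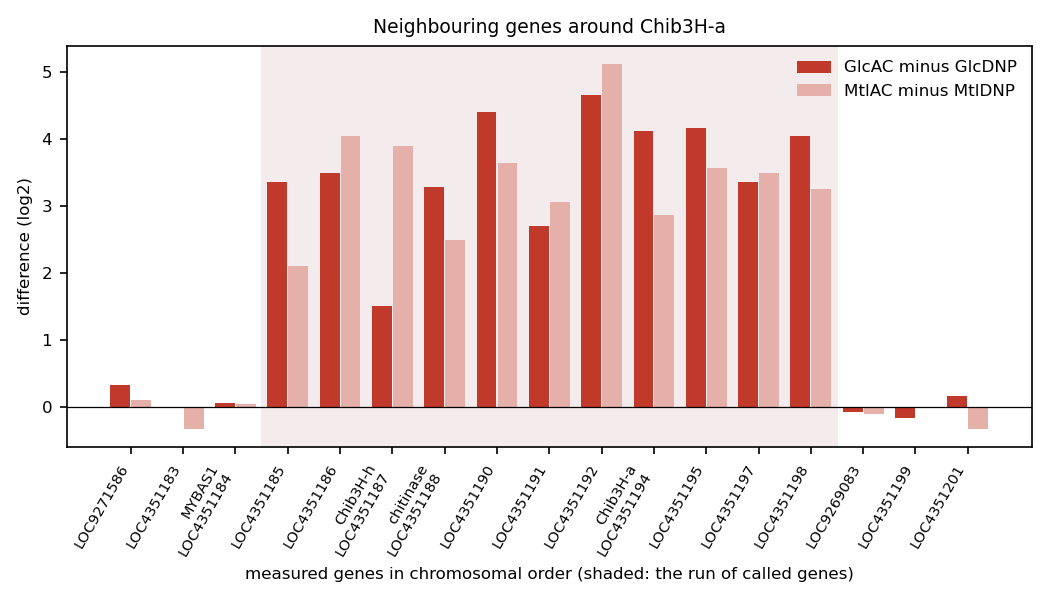
Log2 differences (y axis) of GlcAC minus GlcDNP (dark bars) and MtlAC minus MtlDNP (light bars) for the 11 neighbouring genes of the run (shaded) and 3 measured genes on either side, in chromosomal order (x axis, no distances). Inside the shaded run the dark bars span 1.501 to 4.66 and the light ones 2.11 to 5.12, while the flanking bars lie between -0.33 and 0.33.

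Of 64 auxin genes 2 rose, ARF8 (log2 difference 1.15) and SAUR39, not above the share of all probes called higher (3.97%), and the median was 0.04. SAUR39, an early auxin-response gene, had log2 levels of 5.51 and 5.77 in GlcAC, against 2.32 and 2.78 in GlcDNP and 2.77 and 2.22 in Glc, so GlcDNP overlapped Glc. The brassinosteroid C6-oxidase DWARF (C6-oxidase, LOC4333399), which acts late in hormone synthesis, had log2 levels of 6.03 and 6.30 in GlcAC, against 3.45 and 3.54 in GlcDNP and 3.74 and 4.05 in Glc. With D2 (LOC4327329, 1.23 ± 0.23) it made up the 2 of 16 brassinosteroid genes that rose. The gene names used here also label D2 C6-oxidase, and the step its enzyme catalyses was not examined. The call of D2 was lost with quantile normalization and without any 1 of GlcAC replicates 1 and 2 and GlcDNP replicate 1. The transcription factor gene DOF4 had log2 levels of 10.47 and 10.50 in GlcAC, against 7.55 and 7.70 in GlcDNP and 10.10 and 10.12 in Glc. AT10, an acyltransferase known to modify the xylan of grass cell walls, differed by 2.76 ± 0.37 with a dim level in GlcDNP. OsCASPL5B1, of a family of membrane proteins related to Casparian strip proteins, differed by 2.48 ± 0.20, and PNP2 by 2.55 ± 0.24.

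In the list of cell wall genes, 3 of 46 rose and 1 fell, near the shares of all probes, with a median of -0.06. Those that rose, Os-UGD3, Os-UGD4 and Os-UGD5, encode UDP-glucose dehydrogenases, which make the UDP-glucuronate used for wall polysaccharides. Os-UGD3 had log2 levels of 9.66 and 9.65 in GlcAC, against 7.77 and 7.80 in GlcDNP and 10.23 and 10.33 in Glc. Os-UGD4 differed by 1.25 ± 0.32 (adjusted p = 0.0405, limma) with 8.40 and 8.20 in Glc, above the 5.38 and 5.17 of GlcAC and the 3.91 and 4.14 of GlcDNP. That call was lost with quantile normalization and without any 1 of the 4 arrays compared. Os-UGD4 and Os-UGD5 have neighbouring gene numbers and may share probe sequence. BC1L6, a COBRA-like wall gene, fell by 1.02 on the log2 scale, a call lost with median centring, without GlcAC replicate 1 and without GlcDNP replicate 1.

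Genes of the cytoskeleton, of the endoplasmic reticulum and of protein turnover were higher in GlcAC than in GlcDNP wherever they were called. Of all probes with a usable name, 5.50% were called higher and 1.71% lower, so lists of this size hold few lower calls in any case. Of 25 measured tubulin, actin and actin-binding genes, 6 rose and none fell. ADF-5, an actin-depolymerizing factor, had log2 levels of 7.199 and 7.19 in GlcAC and 4.94 and 4.80 in GlcDNP. AC1, an actin, had log2 levels of 4.97 and 5.37 in GlcAC, against 3.06 and 3.41 in GlcDNP and 6.15 and 6.40 in Glc. The others called were TID1 (an alpha-tubulin), ADF-2, ADF-4 and RTUB-2 (a beta-tubulin), with log2 differences of 1.46, 1.34, 1.32 and 1.07. ADF-4 and RTUB-2 lost their calls without GlcAC replicate 2 and without GlcDNP replicate 1, and RTUB-2 also without GlcDNP replicate 2. The list's median was 0.15.

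Proteins that enter the secretory pathway lose their signal peptide and receive sugar chains in the endoplasmic reticulum. SPC22, named as a signal peptidase subunit, had log2 levels of 7.003 and 6.74 in GlcAC, against 4.35 and 4.04 in GlcDNP and 6.89 and 6.99 in Glc. OST4B, a small subunit of the oligosaccharyltransferase that attaches those chains, had log2 levels of 6.13 and 6.03 in GlcAC, against 2.77 and 1.99 in GlcDNP and 6.36 and 7.08 in Glc. For both genes GlcDNP was the low group of the 3. OST48 and OST1A of the same enzyme differed by 1.18 ± 0.16 and 1.16 ± 0.18, and OsPDIL5-1, a protein disulfide isomerase, by 1.35 ± 0.26, a call lost without any 1 of the 4 arrays. The endoplasmic reticulum list does not hold SPC22, and 4 of its 31 genes rose, none fell, and the median was 0.25.

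All 17 genes of the proteasome list had a positive log2 difference, with a median of 0.63, and 2 passed the test: PBF1 at 1.19 ± 0.25 and OsPBC1 at 1.11 ± 0.20. Neither was called when the arrays were quantile normalized once more, which moved the median to 0.53, nor without GlcAC replicate 1 or GlcDNP replicate 1, and PBF1 was not called without GlcAC replicate 2. PAC1A, a proteasome subunit gene outside this list, was called higher in GlcAC, with a log2 difference of 1.82. Of 24 ribosomal protein genes, 3 rose (CL27 at 1.93 ± 0.23, RPL39C at 1.47 ± 0.17 and RPS27AB at 1.08 ± 0.17) and the median was 0.35, which quantile normalization moved to 0.13. Of 9 translation factors, eIF3k and EF-1-beta rose, by 1.03 and 1.01, and neither was called after quantile normalization or without GlcAC replicate 2. RPS27AB lost its call after quantile normalization, RPS27AB and eIF3k lost theirs without GlcDNP replicate 1, and EF-1-beta without GlcAC replicate 1 or GlcDNP replicate 2. The mean of Glc was above that of GlcAC for each of these called genes, with median log2 differences of GlcAC over Glc of -0.31, -0.73 and -0.25 in the 3 lists, and of GlcDNP over Glc of -0.97, -1.10 and -0.78.

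Of 9 measured late embryogenesis abundant genes, whose hydrophilic proteins protect drying tissue, 6 fell, none rose, and the median log2 difference was -1.096. RAB16C, a dehydrin, had log2 levels of 5.99 and 6.03 in GlcAC, against 8.07 and 8.03 in GlcDNP and 4.78 and 5.00 in Glc. Its neighbour RAB16B had 7.05 and 6.93 in GlcAC, against 8.75 and 8.77 in GlcDNP and 5.92 and 6.11 in Glc. The log2 differences were -2.04 ± 0.17 (adjusted p = 0.000144, limma) and -1.77 ± 0.18 (adjusted p = 0.000382, limma), and GlcAC lay between Glc and GlcDNP for each. EM, rab25, LEA19 and RAB21 had log2 differences of -1.31, -1.16, -1.096 and -1.05. RAB21 lost its call when arrays were centred on their medians and without replicate 2 of either treatment, and rab25 without replicate 1 of either. LEA1, RAB16D and Dhn1, at -0.98, -0.68 and -0.56, were not called. The RAB16 genes and RAB21 are close relatives and may share probe sequence.

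Other seed genes moved in part. OLE18, an oleosin that coats oil bodies, had log2 levels of 7.15 and 7.32 in GlcAC, against 8.50 and 8.60 in GlcDNP and 6.73 and 6.48 in Glc. It was the called member of 10 endosperm storage and oil body genes. The other 9 members, the glutelins GLUA-1, GLUA-2, GLUA-3, GLUB-2, GLUB-4, GLUB-5 and GluC, a prolamin and Wx, are endosperm genes. Their log2 differences lay between -0.73 and 0.62, and their levels in the 4 arrays did not pass 4.45, with many below the lower quartile. The summed linear level of the 10 genes was 179 and 204 in GlcAC, against 419 and 439 in GlcDNP, and is largely OLE18. The part of seed tissue carried along in these differences was not tested. OsPM19L1, an embryo membrane protein gene, had log2 levels of 7.22 and 7.59 in GlcAC and 8.82 in both GlcDNP arrays, a call lost without GlcAC replicate 1.

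Regulators of water stress were mixed. Of 12 DREB and CBF transcription factor genes, which drive cold and drought responses in plants, 3 fell and 1 rose, with a median of -0.59. DREB1H had log2 levels of 5.94 and 5.95 in GlcAC, against 7.85 and 7.82 in GlcDNP and 5.71 and 5.41 in Glc. DREB1B had 6.9995 and 6.97 in GlcAC against 8.51 and 8.46 in GlcDNP, and CBF3 had 4.63 and 4.62 in GlcAC against 5.97 and 5.89 in GlcDNP. These 3 genes are neighbours, and CBF3 lost its call without any 1 of the 4 arrays. DREB1I moved the opposite way, with 8.39 and 8.25 in GlcAC, against 6.74 and 6.96 in GlcDNP and 4.59 and 4.68 in Glc, a log2 difference of 1.46 ± 0.19 (adjusted p = 0.00132, limma). DREB1J, DREB2B, CBF1, AP22, DREB1E, CBF2, DREB1G and DREB2A lay between -0.84 and -0.04 and were not called. After quantile normalization 5 of the 12 fell, DREB1J and DREB2B being added.

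Of 78 genes for abscisic acid, the hormone that keeps seeds dormant and signals drought, 3 rose and 2 fell, close to the shares of all probes (3.97% higher and 1.3% lower), with a median of -0.20. OsPP2C59, a phosphatase of the family that restrains the hormone's signal, and the kinase gene OsSAPK5 fell, with log2 differences of -1.38 and -1.33. ABA8OX1, which breaks the hormone down, and the phosphatase genes OsPP2C60 and OsPP2C77 rose by 1.12, 1.12 and 1.06, and none of these 3 was called after quantile normalization or without GlcAC replicate 2. ABA8OX1 also lost its call without replicate 1 of either treatment, OsPP2C60 without GlcDNP replicate 2, and OsPP2C77 without any 1 array. ABA8OX1 had log2 levels of 7.85 and 7.87 in GlcAC, against 6.35 and 7.14 in GlcDNP and 6.28 and 6.19 in Glc.

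Small heat shock proteins, chaperones that bind unfolding proteins, were lower in GlcAC. Of 26 heat shock protein genes 5 fell, none rose, and the median was -0.65; after a repeated quantile normalization 10 fell and the median was -0.93. HSP16.9A had log2 levels of 8.90 and 9.01 in GlcAC, against 10.23 and 10.27 in GlcDNP and 7.39 and 7.53 in Glc. HSP18.6 had 7.08 and 7.12 in GlcAC, against 8.23 and 8.12 in GlcDNP and 5.49 and 5.32 in Glc. GlcAC lay between Glc and GlcDNP for both. HSP26.2, HSP18.1 and HSP16.0 fell, with log2 differences of -1.36, -1.19 and -1.003. HSP16.0 was not called after median centring, neither it nor HSP18.1 without replicate 1 of either treatment, and HSP18.1 not without GlcDNP replicate 2. HSP16.9C was just outside it at -0.97. Several small heat shock protein genes are near copies of each other, and their probes may share signal.

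The heat shock factors, which switch such genes on or off, moved both ways, with 3 of 21 higher and 2 lower. After quantile normalization 2 were higher and 4 lower, with lower calls added for HSF09 and for a member not named here. HSF22, HSF12 (LOC4344063) and HSF06 rose by 1.42, 1.296 and 1.08, and HSF07 and HSF05 fell, with log2 differences of -1.18 and -1.06. HSF22 lost its call without any 1 of GlcAC replicates 1 and 2 and GlcDNP replicate 1. HSF06 lost its call with quantile normalization, without GlcAC replicate 2 and without either GlcDNP array, and HSF05 with median centring, without GlcAC replicate 1 and without either GlcDNP array. HSF22 and HSF12 are also named HSFB4C and HSFB4B, members of class B, which lacks an activation domain, whereas HSF07 is HSFA3 of the activating class A. HSF07 had log2 levels of 5.80 and 5.81 in GlcAC, against 6.92 and 7.06 in GlcDNP and 3.37 and 3.47 in Glc. HSF05 varied between the GlcAC arrays, at 3.86 and 4.74, against 5.42 and 5.32 in GlcDNP.

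**Figure D3:**
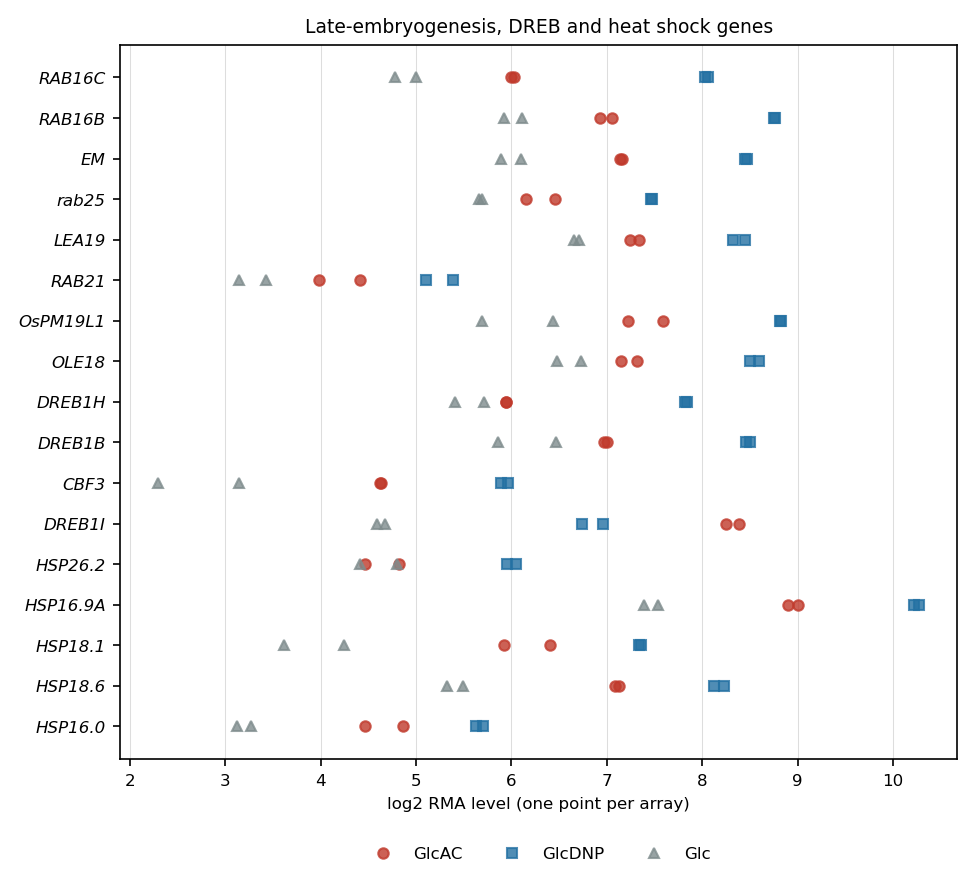
Log2 RMA levels (x axis) of 17 named late-embryogenesis, seed, DREB and heat shock genes (y axis), 1 point per array, for GlcAC (circles), GlcDNP (squares) and Glc (triangles). Levels are comparable within a row only. GlcAC lies to the left of GlcDNP in every row except DREB1I, where GlcAC is at 8.39 and 8.25 and GlcDNP at 6.74 and 6.96.

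The lowest log2 differences among genes with a usable name were those of OC-II and OsTLP10. OC-II, a cystatin that blocks cysteine proteases, had log2 levels of 4.71 and 4.86 in GlcAC, against 6.92 and 7.01 in GlcDNP and 4.59 and 4.22 in Glc. OsTLP10 (LOC4339597), of the tubby-like family, had 3.86 and 4.16 in GlcAC, against 6.29 and 6.00 in GlcDNP and 4.05 and 4.18 in Glc. For OC-II and OsTLP10 the high group was GlcDNP, and GlcAC was close to Glc. NH3, related to the salicylic acid co-regulator NPR1 of Arabidopsis, and AGO2, an Argonaute protein that carries small RNAs, had log2 differences of -1.82 and -1.66. A lectin gene, Agglutinin, and GAP1 had -1.74 and -1.44. The homeobox gene HOX1 had -1.502 with a dim level in GlcAC, a call lost without GlcAC replicate 2.

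Stress-associated zinc finger genes (SAP) diverged. OsSAP5 had log2 levels of 9.35 and 9.39 in GlcAC, against 7.29 and 7.37 in GlcDNP and 6.65 and 6.76 in Glc. OsSAP17 had 4.27 and 4.69 in GlcAC, against 5.97 and 5.93 in GlcDNP and 3.10 and 3.08 in Glc, with an adjusted p of 0.0304 (limma), a call lost without any 1 of the 4 arrays compared. OsSAP8 rose by 1.29, which makes 2 of 13 higher and 1 lower. Among 62 antioxidant genes 5 rose and 2 fell, beside 3.97% higher and 1.3% lower of all probes, with a median of -0.02. The 5 that rose were glutaredoxins, GRXC8, GRXC3, GRXS7, GRXS1 and GRXC4, with log2 differences of 1.16 to 1.70. A sixth glutaredoxin, GRXC6, and the thioredoxin OsTrx18 fell, with log2 differences of -1.09 and -1.18. GRXS1 and GRXC4 were not called after quantile normalization.

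**Figure D4:**
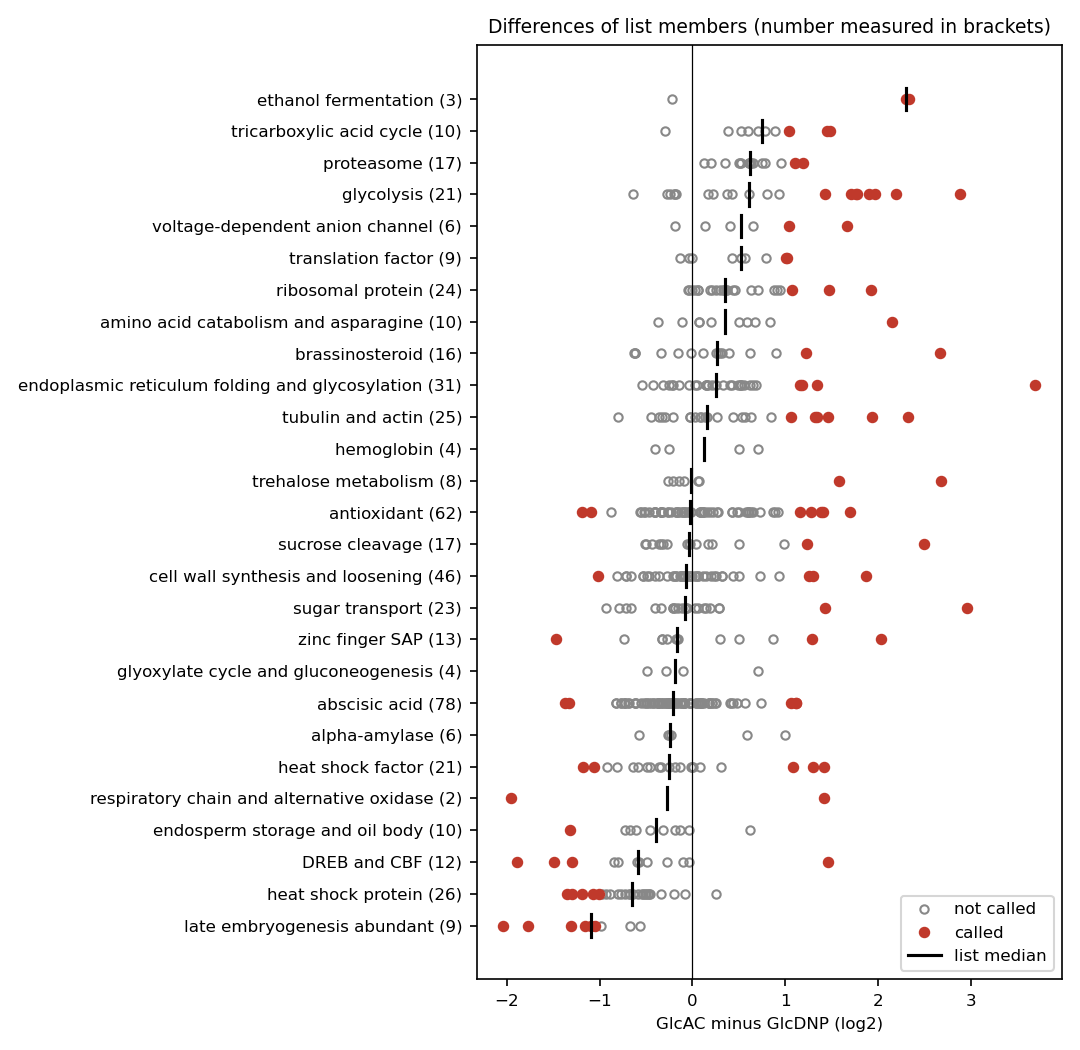
Log2 differences, GlcAC minus GlcDNP (x axis), of the measured members of 27 gene lists (y axis, number of members in brackets, sorted by median). Filled points passed the test, open points did not, and vertical bars are list medians. Ethanol fermentation is at the top (median 2.31) and late embryogenesis abundant genes at the bottom (median -1.096).

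Of all probes 5.26% were called, and of those with a usable name 5.50% were called higher and 1.71% lower. Some of the lists in which no member was called are given here, and no test was run on that absence. No member was called among 11 ethylene genes (log2 differences of -0.52 to 0.52), 11 gibberellin genes (-0.44 to 0.66), 10 NAC factors (-0.98 to 0.44), 13 listed pathogenesis-related and chitinase genes (-0.59 to 0.20), 31 MADS box factors (-0.66 to 0.52) and 37 kinesins (-0.68 to 0.36). Of these, 16 MADS box factors and 13 kinesins were dim in both treatments, where a change could be missed. The pathogenesis-related and chitinase list does not hold Chib3H-a, Chib3H-h or the gene named chitinase (LOC4351188), which were all called higher. Of 17 photosynthesis genes, which should be quiet in dark embryos, none was called, and their summed linear level was 118 and 116 in GlcAC and 144 and 134.001 in GlcDNP.

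The same 2 treatments were compared on mannitol to see whether the contrast depends on the sugar. MtlAC over MtlDNP gave 750 calls (2.05%). Of the 1454 probes higher in GlcAC, 360 (24.8%) were also called higher in MtlAC, which is 63.0% of the 571 called there. Of the 475 lower probes, 78 (16.4%) were called lower in MtlAC, 43.6% of 179. The probes called in glucose had a median log2 difference of 1.43 there and 0.59 in mannitol for the higher ones, and -1.24 and -0.63 for the lower ones. The smaller values in mannitol follow in part from choosing the probes in glucose. A test of the difference itself, GlcAC minus GlcDNP less MtlAC minus MtlDNP, called 154 probes (0.42%), of which 119 (0.325%) were larger in glucose and 35 (0.0955%) larger in mannitol. No probe was called when only the 8 compared arrays were fitted, although 3971 had an unadjusted p under 0.05 (limma), and leaving out 1 array left 0 (GlcAC replicate 2) to 73. The single calls below therefore rest on the spread shared over all 12 arrays.

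OsPPT3 had the largest called interaction in favour of glucose among genes with a usable name: its log2 difference was 2.96 in glucose and 0.58 in mannitol (MtlAC mean 4.07, MtlDNP mean 3.48), an interaction of 2.38 (adjusted p = 0.0146, limma). SPC22 and the C6-oxidase DWARF (LOC4333399) were 2.68 and 2.67 in glucose and 0.85 and 0.81 in mannitol. For RPL39C, opda and PAC1A, a proteasome subunit gene, the log2 difference was 1.47, 1.45 and 1.82 in glucose and -0.41, -0.50 and -0.12 in mannitol. In the other direction stood RAmy3D, with means of 8.44 in MtlAC and 5.47 in MtlDNP: its log2 difference was 2.97 in mannitol against 0.995 in glucose, an interaction of -1.97 (adjusted p = 0.0146, limma). ICL, not called in glucose at -0.10, was at 1.74 in mannitol, an interaction of -1.84 (adjusted p = 0.0456, limma). DREB1I and salT, a salt-induced lectin gene, differed by 1.46 and 2.13 in glucose and by 3.13 and 3.59 in mannitol. Chib3H-h of the chitinase run was at 1.501 and 3.89, and OsC3H37, a zinc finger gene, at 0.82 and 2.13. For ICL and salT the Mtl means were 7.60 and 11.59, above those of MtlAC (5.88 and 10.93) and MtlDNP (4.14 and 7.33). RAmy3D and Chib3H-h had Mtl means of 7.82 and 4.03, between MtlDNP and MtlAC. The Mtl means of DREB1I and OsC3H37, 6.57 and 7.29, were below those of MtlDNP (6.67 and 7.95) and MtlAC (9.80 and 10.08).

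**Figure D5:**
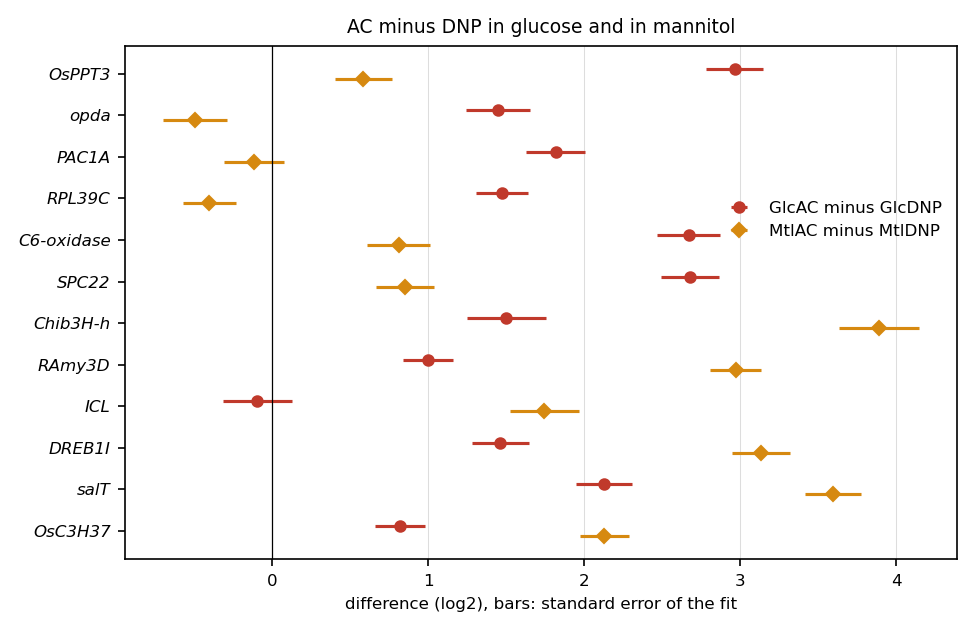
Log2 differences of AC minus DNP (x axis, bars are standard errors of the limma fit) in glucose (circles) and in mannitol (diamonds) for the 6 named genes with the highest and the 6 with the lowest called interaction (y axis). The upper 6 genes differ more in glucose, by 1.83 (SPC22) to 2.38 (OsPPT3) on the log2 scale, and the lower 6 more in mannitol.

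For genes of fermentation and the alternative oxidase no interaction was called. Adh2 and PDC2 had log2 differences of 1.68 and 1.94 in mannitol, both called there, and interactions of 0.66 and 0.37 that were not. AOX1 was at -1.98 in mannitol and -1.96 in glucose, an interaction of 0.02 (adjusted p = 0.989, limma). CAD7 was called in mannitol too, at 2.89, with MtlAC at 7.91 and MtlDNP at 5.03 on average. In mannitol the median log2 difference was -0.61 for late embryogenesis abundant, -0.34 for DREB and CBF, and 0.07 for heat shock protein genes. Called lower there were 1, 0 and 0 of these genes, and DREB1I was called higher. The median in mannitol was 0.14 for the tricarboxylic acid cycle, 0.03 for voltage-dependent anion channels and 0.12 for the proteasome. It was 0.15 for translation factors and -0.28 for ribosomal proteins. Called higher there were 0, 0, 0, 0 and 2 genes of these 5 lists, and 1 anion channel was called lower. Of the 21 glycolysis genes 7 were called higher in mannitol, with a median of 0.29. A p that misses the threshold does not show that the differences were equal.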

How the data were processed

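The deposited values are log2 RMA expression values of the authors, from Expression Console at the core level per the labels. RMA corrects background, equalizes the arrays' intensity distributions and summarizes probes. The base of the logarithm is not stated and was taken as 2. The submitters' processing notes also list Affymetrix Power Tools. For versions, build and annotation the entry is: not given in the sources used here. No value was missing, and all 36643 probes and 12 arrays entered 1 fit with limma 3.58.1 in R 4.3.3 (1 coefficient per condition, empirical Bayes, 6 residual and 3.82 prior degrees of freedom, Benjamini-Hochberg adjustment over all probes). The script was tested on simulated data. Errors of differences are standard errors, and the number of arrays limits precision. The files used here give no detection calls, so a level below the mean lower quartile (2.22) is called dim.

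Of the probes, 24161 had 1 gene, 90 several and 12392 none; 2744 had a usable name in the RefSeq table. Genes were named by rule: the 15 highest and 15 lowest called differences with arrays lying apart, 6 each way for the interaction, and up to 6 members of each list described (all members of lists of up to 12). The members and lists were chosen with earlier results of these data known, and list membership was corrected from names after the annotation was seen. Lists hold only genes with usable names and are incomplete. Promoters were not analysed here.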

Additional observations from a re-analysis of the deposited data

Results flagged for a closer look

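Of the 154 probes for which the difference between AC and DNP itself differed between sugars by the interaction test, the 6 highest and 6 lowest with a usable name are given. The log2 interaction, the difference in glucose minus that in mannitol, was 2.38 for OsPPT3, 1.94 for opda, 1.94 for PAC1A, 1.88 for RPL39C, 1.86 for C6-oxidase (LOC4333399) and 1.83 for SPC22. It was -2.39 for Chib3H-h, -1.97 for RAmy3D, -1.84 for ICL, -1.67 for DREB1I, -1.47 for salT and -1.31 for OsC3H37. Without GlcAC replicate 1 or without GlcAC replicate 2 none of these 12 was called by limma, and with a replicate block 6 were.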

How the results depend on the processing

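Counts of calls moved by over 1.5 times under some settings. GlcAC over GlcDNP gave 1929 calls, 176 with treat at a log2 difference of 1, 3176 with no size threshold, and 1216 to 1665 without 1 array (1216 without GlcAC replicate 2). The sugar interaction gave 154 calls, 512 with dim probes left out, 445 with trend and robust eBayes, 88 with a replicate block, 0 with only the compared arrays (3971 probes at an unadjusted p under 0.05) and 0 with treat (4343 probes under 0.05 without it), and 0 to 73 without 1 array; fewer arrays leave fewer degrees of freedom. MtlAC over MtlDNP gave 750 calls, 116 with only its 4 arrays, 91 with treat, and 389 to 691 without 1 array (389 and 484 without MtlAC replicate 2 and 1). GlcAC over Glc gave 1925, 227 with treat, 3077 with no size threshold, and 1218 to 1714 without 1 array (1218 and 1280 without GlcAC replicate 2 and Glc replicate 2). GlcDNP over Glc gave 5113, 1238 with treat and 9085 with no size threshold, and 4065 to 5672 without 1 array. The replicate block gave 1947 calls in GlcAC over GlcDNP and changed no call of the 199 genes compared. Deviations of same-numbered GlcAC and GlcDNP arrays correlated at 0.01. The labels do not say whether a replicate number marks a shared batch. Being taken on normalized values, the correlation cannot show that nothing was shared.

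Of 101 named calls, 15 were lost with quantile normalization, 4 with median centring, 18 with only the compared arrays and 78 with treat, and 12 to 22 without 1 array, when the lone array is assumed to vary like the others. No called difference changed sign. Arrays with no detection calls limit statements on dim genes.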

Other observations

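Besides the chitinase run, 7 shorter runs of at least 3 neighbouring measured genes were called in 1 direction, and all were noticed after the values were seen. The 2 runs that fell are the neighbouring RAB16C, RAB16B and RAB21, and DREB1B, DREB1H and CBF3. Of the 5 runs that rose, that from LOC4344615 to LOC4344619 held the largest single log2 difference in any run, 5.29 ± 0.24 for LOC4344618. That gene had log2 levels of 8.996 and 9.01 in GlcAC, against 3.97 and 3.45 in GlcDNP and a mean of 8.20 in Glc, and differed by 4.69 in mannitol. In the run from LOC4347408 to LOC4347412, LOC4347408 had 8.79 in both GlcAC arrays, against 4.05 and 4.03 in GlcDNP and a mean of 5.07 in Glc. These genes carry no informative name in the tables used.

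Some further genes were chosen after their values were seen, and no alternative setting was run for them. KRP5, an inhibitor of cyclin-dependent kinases, differed by 1.88 ± 0.16. It was the called member of 49 cell cycle genes, a share below the 3.97% of all probes called higher. GST1, a glutathione transferase, and ABCG39, a transporter, differed by 1.96 ± 0.17 and 2.11 ± 0.33. They were the called members of 19 detoxification genes, beside 5.50% called higher of all probes with a usable name. GLN1-1, a cytosolic glutamine synthetase, rose by 1.396 ± 0.29 and was the called member of 20 nitrogen genes, near that share. MT21A, a metallothionein, and AQP, an aquaporin, fell, with log2 differences of -1.36 and -1.17. They were the called members of 52 metallothionein and metal transport genes and of 27 aquaporins, beside 1.71% called lower of all probes with a usable name.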
